A study of Mus musculus with 16 samples.

Results

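Cortical bone and skeletal muscle of vehicle-treated (VEH) mice were compared by bulk RNA-seq, using 8 of the 16 libraries of the series, 4 from each tissue. All mice were female C57BL/6, labelled 18 months of age, which was their age when dosing began, and received the vehicle, a mixture of ethanol, Solutol and water, by oral gavage. The other 8 libraries came from mice of the same strain, sex and age given the aryl hydrocarbon receptor (AhR) inhibitor BAY2416964 (BAY) in that vehicle, and are used here only as a check. The bone samples were shafts left after marrow stromal cells had been taken, digested with collagenase, frozen and extracted with TRIzol, whereas 1 tibialis anterior (TA), a fast hindlimb muscle, was taken per mouse and extracted by a vendor on a Maxwell instrument. Whether the TA and the shafts came from the same mice is not given in the sources used here. Tissue, extraction and handling cannot be told apart in any difference between the tissues.

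Of 20526 genes listed in the tables of both tissues, 14439 were protein coding. Of these, 5458 had at least 10 CPM (reads per 1000000 counted on genes) in every VEH library of at least 1 tissue, and they are the genes described here. Both tissues passed this level for 2720 of them, cortical bone alone for 975 and skeletal muscle alone for 1763. The latter groups were admitted through the tissue in which they were high, so the number of differences among them is a description and supports nothing. A further 20 protein-coding genes passed the level in cortical bone and had no row in the skeletal muscle table, among them Ibsp, Sost and Mepe, and 8 passed it in skeletal muscle with no row in the bone table, in part because of different merging of identifiers (Aldoa). The tables were scaled separately by the authors, so each library was rescaled to 1000000 over the genes of both tables. Every CPM value below is on this joint scale unless called deposited. The 10 CPM level, here and below, was applied to the deposited CPM.

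Cortical bone is built by osteoblasts, which secrete type I collagen and mineralizing proteins. Some of them become osteocytes, which lie in the matrix and secrete regulators such as sclerostin, and osteoclasts resorb the matrix with acid and proteases. Skeletal muscle fibers contract by sliding myosin filaments along actin, in sarcomeres spanned by titin and nebulin, with calcium released from the sarcoplasmic reticulum. Fast fibers, which fill most of the TA, rely on fast myosins, parvalbumin, glycogen and glycolysis.

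The first 250 bases before the start of transcription are shown for muscle and bone genes described below, as examples of the sequence in front of genes higher in 1 tissue or listed in 1 table: the fast myosin heavy chain Myh4 and the fast regulatory light chain Mylpf of muscle, and the collagen chain Col1a2 and the bone sialoprotein Ibsp of bone. The sequences are those of RefSeq on GRCm38.p6, at chr11:67237562-67237811 (Myh4), chr7:127211358-127211607 (Mylpf), chr6:4505368-4505617 (Col1a2) and chr5:104299037-104299286 (Ibsp), all on the plus strand, and all 4 genes were matched by symbol. Capitals mark TATAAA and CAGCTG, an E-box of the kind that myogenic factors bind, on either strand. TGTGGT, of the kind that Runx factors bind, was searched as well and was in none of the 4 windows.
Myh4: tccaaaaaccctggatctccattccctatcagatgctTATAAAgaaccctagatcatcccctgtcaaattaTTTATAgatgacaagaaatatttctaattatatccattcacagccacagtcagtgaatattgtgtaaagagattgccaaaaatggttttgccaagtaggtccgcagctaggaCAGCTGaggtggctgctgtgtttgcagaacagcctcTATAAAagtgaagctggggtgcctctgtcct
Mylpf: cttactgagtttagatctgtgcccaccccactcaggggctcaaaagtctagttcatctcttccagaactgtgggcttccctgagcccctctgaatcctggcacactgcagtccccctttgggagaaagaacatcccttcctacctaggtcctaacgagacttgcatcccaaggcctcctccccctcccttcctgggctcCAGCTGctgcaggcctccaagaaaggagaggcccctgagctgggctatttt
Col1a2: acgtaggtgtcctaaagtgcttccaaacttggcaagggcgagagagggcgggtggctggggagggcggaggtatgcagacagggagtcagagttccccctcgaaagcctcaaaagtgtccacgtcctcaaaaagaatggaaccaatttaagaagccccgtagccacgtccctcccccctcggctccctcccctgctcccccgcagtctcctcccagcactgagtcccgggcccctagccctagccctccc
Ibsp: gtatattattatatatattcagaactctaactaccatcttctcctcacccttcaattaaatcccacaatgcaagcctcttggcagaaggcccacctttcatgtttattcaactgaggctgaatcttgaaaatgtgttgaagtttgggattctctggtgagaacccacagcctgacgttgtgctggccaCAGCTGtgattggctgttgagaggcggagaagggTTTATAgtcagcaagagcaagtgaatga
Myh4 held TATAAA at 3 places, the nearest 31 bases before the start, and CAGCTG at 67 bases, whereas Mylpf held CAGCTG alone, 51 bases before the start. Ibsp, a bone gene, held both, with TATAAA at 28 and CAGCTG at 62 bases, and Col1a2 held neither. Of 32851 promoters in the RefSeq table, 12.4% held TATAAA, 13% held CAGCTG and 14% held TGTGGT in a window of the same length, so these matches are a description of the 4 sequences and not of binding.

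The 4 bone libraries were unequal in ways that touch each result. Reads counted on genes came to 6949673, 1085830, 2821764 and 1373132 in bone replicates 1 to 4 and to between 7172558 and 9260837 in muscle, as estimated from the steps between low values. Olfactory receptor genes, which are markers of neither tissue, stood at 0.193, 9.91, 2.02 and 7.20 CPM per kb of exon in bone replicates 1 to 4, and between 0.00613 and 0.00738 in muscle, where genes without a row were taken as 0. Of the 3695 genes that passed 10 CPM in bone, 3687 exceeded 3 times that level per kb in bone replicate 1, 2249 in replicate 3, 381 in replicate 4 and 43 in replicate 2. Bone replicate 1 in turn held a summed 17084 CPM of 14 fast-fiber genes, against 468, 832 and 498 in bone replicates 2 to 4 and between 122610 and 150900 in muscle. The part of both levels in the results below was not tested. Each call was made on 3 scales, none of which adjusts for the fast-fiber level of bone replicate 1. The first is as fitted, the scale of every difference below unless another is named. In the second, libraries were centered on the median of the genes that passed in all 8 libraries (after centering). In the third, the olfactory receptor level per kb was subtracted from each gene by its exon length (after subtraction).

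**Figure D1:**
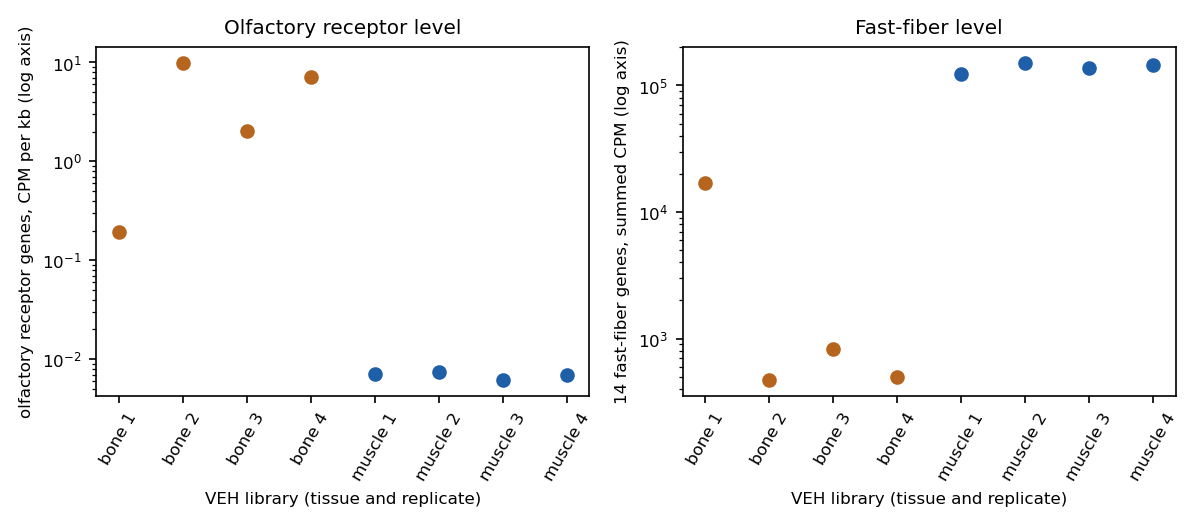
Olfactory receptor level (left, CPM per kb of exon) and summed CPM of 14 fast-fiber genes (right) in each of the 8 VEH libraries, on log axes, with 1 point per library. Bone replicates 2 and 4 had the highest olfactory receptor levels, 9.91 and 7.20, and bone replicate 1 the highest fast-fiber level among bone libraries, 17084.

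Across all 20526 genes, limma called 10708 higher in cortical bone (52.2%) and 824 higher in skeletal muscle (4.01%), at an adjusted p below 0.05 and a log2 difference of at least 1. The median log2 difference, bone minus muscle, was 1.58 over all genes as fitted and -0.44 after subtraction, and centering lowered every difference by 0.65. With centering 83.3% of the calls were bone higher, against 92.9% as fitted, after quantile normalization 48.4% were, and with the olfactory receptor level subtracted 19.1% were, from 836 bone-higher (4.1%) and 3534 muscle-higher (17.3%) calls. Most bone-higher calls were lost with the subtraction, and 328 of them turned to muscle higher. Centering and subtraction both lower bone relative to muscle, so neither could turn a muscle-higher call. For such calls, holding on all 3 scales is a weaker test than for bone-higher calls. Calls that kept their direction on all 3 scales numbered 836 with bone higher (4.1% of 20411 genes with an exon length) and 715 with muscle higher (3.5%). The 836 are the same calls as after subtraction alone. Among the calls on all 3 scales were 187 and 601 of the 5458 genes described here. Of these, 18 and 198 had passed 10 CPM in both tissues, and the rest only in the tissue where they were higher. The levels of all bone libraries lay above all muscle libraries for 38.6% of the 20526 genes and below them for 4.72%.

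**Figure D2:**
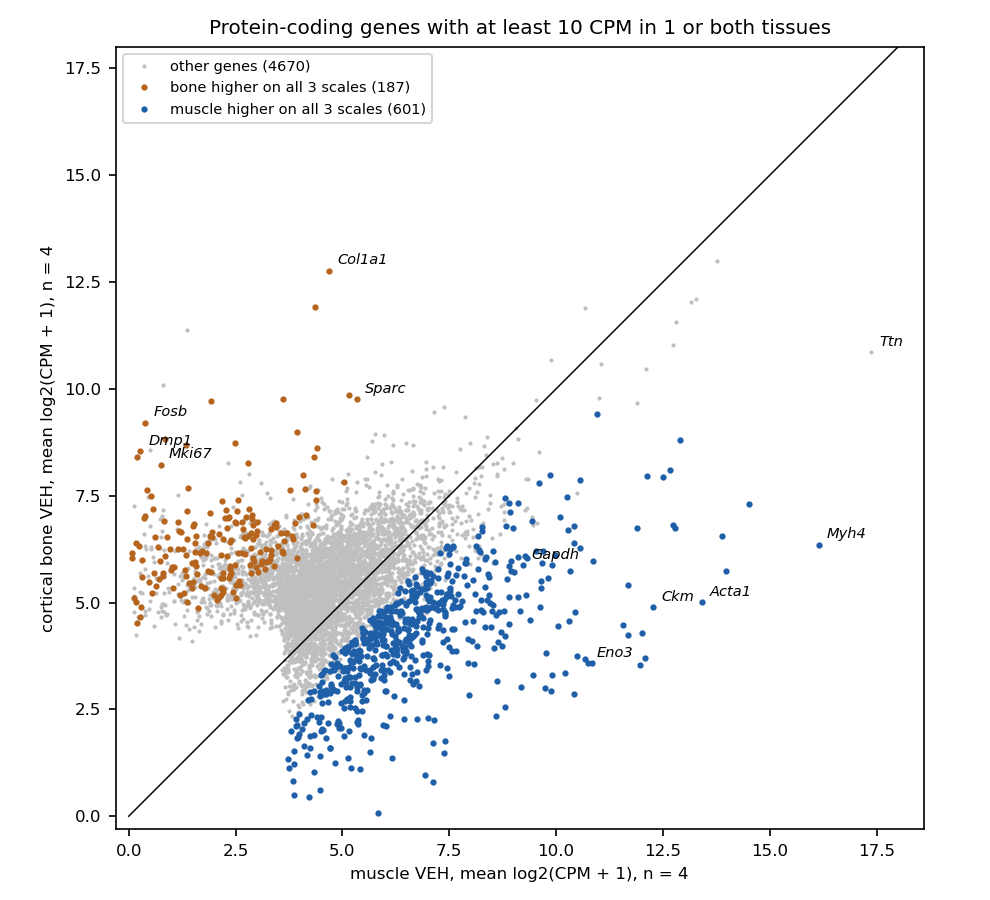
Mean log2(CPM + 1) of 5458 protein-coding genes in cortical bone (y axis, n = 4) against skeletal muscle (x axis, n = 4), with the line of equal level. Brown points are the 187 genes higher in bone and blue points the 601 genes higher in muscle on all 3 scales, and gray points the other genes.

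The largest bone-higher differences that held on all 3 scales belonged to matrix genes of bone and cartilage, early response genes, a proliferation gene and the gelatinase gene Mmp9. Col1a1 (chr11:94827050-94843869 on mm39), the main chain of type I collagen, measured 5889, 1029, 23934 and 16306 CPM in bone replicates 1 to 4 and 12.6, 25.6, 87.1 and 12.7 CPM in muscle. Every bone library exceeded every muscle library, with a log2 difference of 8.08 ± 0.83 (SE, adjusted p = 2.1e-05). Its partner chain Col1a2 measured 3632, 578, 11904 and 8945 CPM in bone and 11.4, 20.2, 62.0 and 9.83 CPM in muscle, a log2 difference of 7.55 ± 0.79 (SE, adjusted p = 2.2e-05). Per kb of exon, Col1a1 averaged 1795 CPM in bone. That was the highest level there among the nuclear genes described here that had an exon length. Spp1, the matrix protein osteopontin, measured 379, 73.9, 1807 and 818 CPM in bone and stayed between 0.475 and 1.31 CPM in muscle. Tnc, the matrix glycoprotein tenascin C, measured 636, 149, 2718 and 1929 CPM in bone and 1.78, 1.71, 8.38 and 1.94 CPM in muscle. Bone replicate 3 was the highest and bone replicate 2 the lowest for all 4 genes, and the groups did not overlap.

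The early response transcription factors Fosb and Fos followed the same order of libraries. Fosb measured 310.2, 168, 2790.1 and 831 CPM in bone and at most 0.544 CPM in muscle, the largest difference of the 187 genes (log2 8.82 ± 0.67 SE, adjusted p = 2.5e-06). Fos measured 375, 60.6, 2122 and 584 CPM in bone and 1.66, 1.56, 2.83 and 0.607 CPM in muscle. Mki67, which marks dividing cells, measured 223, 219, 260 and 624 CPM in bone and 0.238, 0.854, 2.07 and 0.121 CPM in muscle, a log2 difference of 7.48 ± 0.49 (SE, adjusted p = 1.7e-06). The predicted genes Gm10800, Gm10801 and Gm10718 were also among the 10 largest differences as fitted, but had no exon length in the annotation used, so the third scale was not available for them, and reads could be split between near-identical copies. Gm10800 measured 479, 1757, 8161 and 7108 CPM in bone and at most 7.40 CPM in muscle.

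The opposite end was held by the fast contractile apparatus. Myh4 (chr11:67128855-67151273), the heavy chain of the fastest fibers, measured 2876, 40.0, 45.0 and 7.26 CPM in bone replicates 1 to 4 and 61395, 85859, 67804 and 76300 CPM in muscle, a log2 difference of -9.79 ± 1.29 (SE, adjusted p = 9e-05). Skeletal alpha-actin Acta1 (chr8:124618508-124621491) measured 1029, 38.8, 8.17 and 1.82 CPM in bone and 9500.2, 11334, 13235 and 9894 CPM in muscle, a log2 difference of -8.41 ± 1.21 (SE, adjusted p = 0.00018). In both genes bone replicate 1 stood far above the other bone libraries and far below every muscle library. Fast alpha-actinin Actn3 measured 262, 6.06, 4.09 and 0.908 CPM in bone and 3720.4, 4577, 4117 and 3644 CPM in muscle. The calcium pump Atp2a1 measured 1792, 69.6, 16.0 and 2.72 CPM in bone and 14592, 17810, 17295 and 14819 CPM in muscle. The remaining genes of the 10 largest muscle-higher differences were Tnnt3, Tnnc2, Mylpf, Mybpc2, Ckm and Myh1, with log2 differences from -7.33 to -8.37, and all 10 held on all 3 scales.

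**Figure D3:**
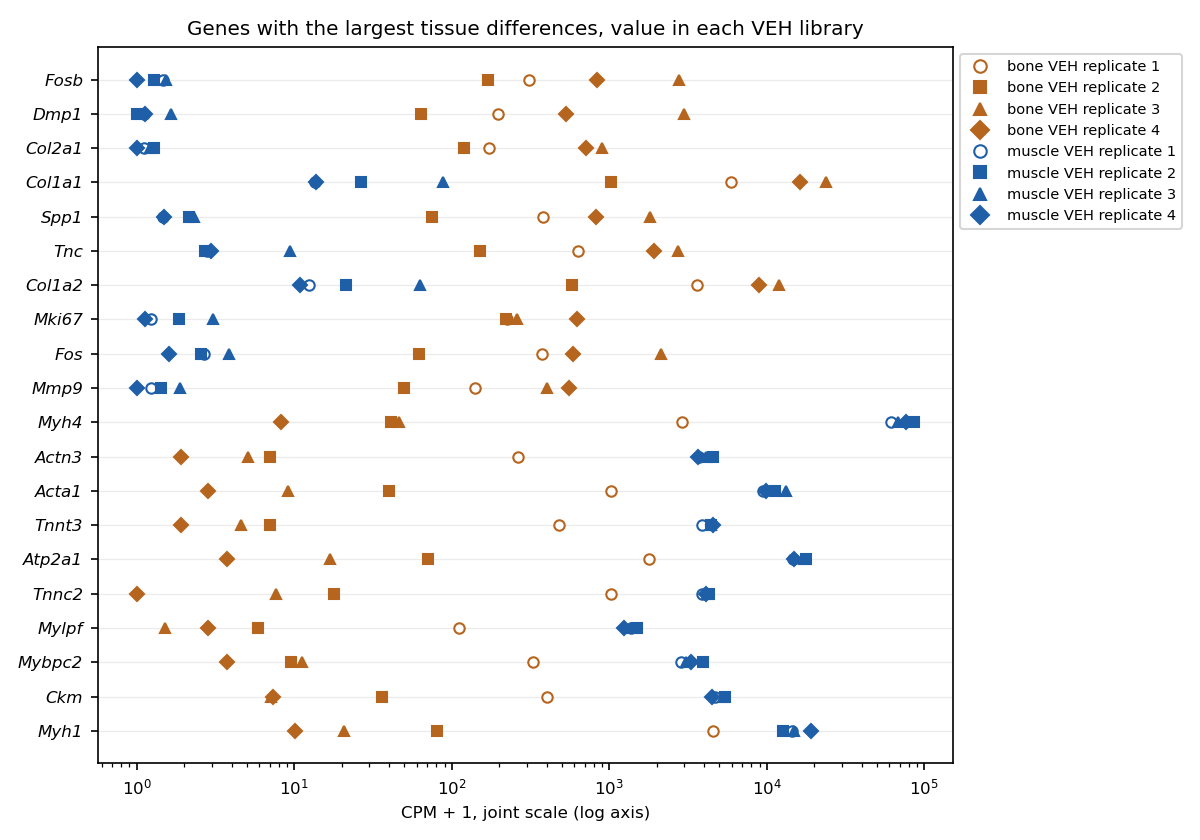
CPM + 1 on a log axis in each VEH library for the 10 largest bone-higher differences that held on all 3 scales (top) and the 10 largest muscle-higher differences (bottom), with 1 symbol per replicate. Brown and blue symbols do not overlap for any of the 20 genes, and bone replicate 1 (open circle) is the highest bone library for each of the 10 muscle genes.

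The bone label was checked against osteoblast, osteocyte and osteoclast genes. Of 10 osteoblast and matrix genes in both tables, all 10 were called higher in bone and none in muscle, beside 52.2% of all genes, and 4 of them held on all 3 scales, beside 4.1% of all genes. Their median log2 difference was 4.71 as fitted and 4.08 after subtraction, beside 1.58 and -0.44 over all genes. The 4 were Col1a1, Col1a2, the collagen-binding glycoprotein Sparc and Smpd3, a sphingomyelinase needed for mineralization. Sparc measured 723, 166, 2176 and 2176 CPM in bone and 30.5, 37.8, 76.2 and 27.7 CPM in muscle (log2 difference 4.42 ± 0.67 SE, adjusted p = 0.00025). Smpd3 measured 30.4, 71.5, 96.5 and 156 CPM in bone and 0.831, 1.71, 2.40 and 0.971 CPM in muscle. The transcription factor Runx2, which directs osteoblast formation, measured 38.8, 76.4, 201 and 194 CPM in bone, against at most 1.54 CPM in muscle. It was called as fitted and centered and missed the call with the olfactory receptor level subtracted, at a log2 difference of 3.86. Alpl, the alkaline phosphatase of mineralizing cells, measured 94.0, 30.3, 287 and 238 CPM in bone and 10.3, 8.82, 9.58 and 9.83 CPM in muscle. In a bulk sample fewer cells of a type and less RNA per cell cannot be told apart.

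Another 5 osteoblast genes had a row in the bone table only and took part in no test. Bglap, which encodes osteocalcin, measured 61.4, 6.06, 373 and 252 CPM and Ibsp 529, 55.8, 1387 and 844 CPM in bone replicates 1 to 4. Mmp13, a collagenase, measured 123, 21.8, 285 and 359 CPM, Bglap2 30.9, 6.06, 191 and 182 CPM and the transcription factor Sp7 13.9, 73.9, 92.5 and 83.5 CPM. Bone replicate 2 was the lowest for Bglap, Bglap2, Ibsp and Mmp13. In that library Bglap stood at 0.99 and Mmp13 at 0.824 times the olfactory receptor level per kb, whereas in bone replicate 3 they stood at 298 and 52.7 times.

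All 8 osteocyte genes in both tables were called higher in bone, beside 52.2% of all genes, with a median log2 difference of 3.96 as fitted and 2.45 after subtraction. Dmp1 (chr5:104350479-104361969), a phosphoprotein of the osteocyte matrix, measured 194, 63.0, 2994 and 527 CPM in bone and at most 0.653 CPM in muscle (log2 difference 8.29 ± 0.83 SE, adjusted p = 1.8e-05), and was the only 1 of the 8 that held on all 3 scales, beside 4.1% of all genes. Phex, an endopeptidase of phosphate control, measured 27.8, 31.5, 443 and 219.7 CPM in bone and at most 0.544 CPM in muscle. Ptprz1, a receptor phosphatase, measured 30.1, 156, 204 and 153 CPM in bone and at most 0.971 CPM in muscle. Sost, which encodes the Wnt inhibitor sclerostin, was in the bone table only and measured 79.1, 42.4, 1294 and 218 CPM. Mepe, a matrix phosphoglycoprotein, measured 28.2, 21.8, 730.5 and 124 CPM, and the phosphate hormone Fgf23 1.05, 13.3, 9.19 and 9.98 CPM. Fgf23 stood at 2.02, 0.499, 1.69 and 0.514 times the olfactory receptor level per kb, so below it in bone replicates 2 and 4. Dmp1, Phex, Sost and Mepe were each highest in bone replicate 3.

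Osteoclast genes were called higher in bone for 10 of 11, beside 52.2% of all genes, with a median log2 difference of 3.49 as fitted and 1.74 after subtraction, and Mmp9 and Itgb3 held on all 3 scales, beside 4.1% of all genes. The gelatinase Mmp9 measured 139.9, 48.5, 403 and 553 CPM in bone and at most 0.871 CPM in muscle (log2 difference 7.20 ± 0.66 SE, adjusted p = 1.2e-05). The integrin chain Itgb3 measured 45.0, 75.2, 244 and 231 CPM in bone and 1.19, 1.56, 1.74 and 0.607 CPM in muscle. Cathepsin K, the main collagen protease of osteoclasts (Ctsk), measured 115, 23.0, 279 and 310.4 CPM in bone and at most 1.09 CPM in muscle, and the acid phosphatase Acp5 measured 86.9, 26.7, 359 and 328 and at most 5.22 CPM. Bone replicates 3 and 4 were the highest for these 4 genes and bone replicate 2 the lowest for Acp5, Ctsk and Mmp9. The gene that was not called was Nfatc1, the osteoclast transcription factor, at 51.1, 75.2, 189 and 138 CPM in bone and 46.7, 68.9, 58.3 and 47.7 CPM in muscle, where the groups overlapped.

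Genes of marrow cells were measured in the shafts. Of 12 neutrophil genes, 11 were in the bone table only, and the remaining gene Lcn2 measured 11.6, 31.5, 34.7 and 169 CPM in bone and at most 0.364 CPM in muscle, a call that held on all 3 scales. Ngp, a granule protein of maturing neutrophils, measured 91.5, 33.9, 151 and 723 CPM in bone. The peroxidase gene Mpo measured 60.4, 23.0, 217 and 593 CPM, and S100a8 measured 21.5, 13.3, 53.1 and 222 CPM. Bone replicate 4 was the highest of the bone libraries for all 4. In bone replicate 2 Mpo, S100a8 and Ngp stood at 0.679, 1.37 and 2.50 times the olfactory receptor level per kb. In the other bone libraries they stood at 24 times or more. The shares of all genes for the counts that follow are 52.2% called higher in bone as fitted and 4.1% on all 3 scales. The 10 monocyte and macrophage genes were all called higher in bone (median log2 difference 3.06 as fitted and 1.91 after subtraction) and Ccr2 alone held on all 3 scales, with 4.84, 110.3, 30.6 and 138 CPM in bone and 0.713, 0.427, 1.96 and 0.364 CPM in muscle. Lysozyme Lyz2 measured 87.3, 24.2, 111 and 622 CPM in bone and 4.16, 3.13, 10.1 and 2.18 CPM in muscle. All 6 B cell genes were called (median log2 difference 2.81 as fitted and 1.00 after subtraction) and the light chain constant gene Igkc held, at 31.1, 18.2, 64.4 and 105 CPM in bone and 2.14, 0, 0.218 and 0 CPM in muscle, while all 4 megakaryocyte genes were called and Gp1bb held. The megakaryocyte median log2 difference was 3.10 as fitted and 1.30 after subtraction. All 7 erythroid genes were called as fitted and 4 after centering, beside 8140 of all 20526 genes called higher in bone after centering. None was called after subtraction, where their median log2 difference was 1.44, against 1.42 after centering and 2.07 as fitted. The beta-globin gene Hbb-bs measured 317, 38.6, 141 and 274 CPM in bone and 27.4, 55.3, 35.6 and 26.3 CPM in muscle, so bone replicate 2 lay within the range of muscle.

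The muscle label was checked against contractile, scaffold and calcium genes. Neither centering nor subtraction could turn a call made higher in muscle. All 14 fast-fiber genes were called higher in muscle and held on all 3 scales, beside 4.01% of all genes as fitted and 3.5% on all 3 scales, with a median log2 difference of -7.40 as fitted and -9.47 after subtraction. The second fast myosin Myh1 measured 14463, 12626, 14825 and 19188 CPM in muscle and 4577, 80.1, 19.6 and 9.08 CPM in bone. Myh2, the myosin of oxidative fast fibers, was the exception in its spread: it measured 1063, 825, 5282 and 1143 CPM in muscle and 2577, 38.4, 16.6 and 19.1 CPM in bone, so bone replicate 1 exceeded muscle replicates 1, 2 and 4. Tpm1, a tropomyosin also made by non-muscle cells, had the smallest difference of the list (log2 -4.10 ± 0.74 SE, adjusted p = 0.00076), at 1312, 114, 639 and 409 CPM in bone and 8232, 7772, 6296 and 8492 CPM in muscle.

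Sarcomere scaffold genes were called higher in muscle for 14 of 14 (median log2 difference -4.84 as fitted and -7.70 after subtraction), and 13 held on all 3 scales, beside 4.01% of all genes as fitted and 3.5% on all 3 scales. Ttn, which encodes the molecular spring titin, measured 134640, 215940, 166540 and 167070 CPM in muscle, against 24630, 1941, 408 and 596 CPM in bone (log2 difference -6.51 ± 1.72 SE, adjusted p = 0.0067), and was the gene of the list that missed the call after centering. Nebulin (Neb), the ruler of the thin filament, measured 20181, 26660, 22353 and 24344 CPM in muscle and 2619, 133, 50.6 and 33.6 CPM in bone. The intermediate filament Des measured 1723, 1908, 2178 and 1681 CPM in muscle and 559, 48.5, 19.4 and 27.2 CPM in bone. Among genes that passed 10 CPM in every library of both tissues, Myh2, Neb, Ttn and Tpm2 had the largest spread between bone libraries. Each of these 4 was highest in bone replicate 1.

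Calcium handling genes were called higher in muscle for 11 of 12 (median log2 difference -4.06 as fitted and -7.45 after subtraction), and the same 11 held on all 3 scales, beside 4.01% of all genes as fitted and 3.5% on all 3 scales. The calcium release channel Ryr1 measured 5903, 9105, 6659 and 6948 CPM in muscle and 949, 98.2, 34.7 and 39.0 CPM in bone (log2 difference -6.03 ± 0.82 SE, adjusted p = 0.00012). The cytosolic buffer parvalbumin (Pvalb), typical of fast fibers, measured 1731, 2113, 1946 and 1635 CPM in muscle and 147, 10.9, 1.53 and 3.63 CPM in bone. The exception was the pump regulator Sln, at most 1.41 CPM in muscle and 1.47, 25.5, 4.09 and 12.7 CPM in bone, which was called higher in bone as fitted and was not called after subtraction.

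Slow-fiber genes did not follow this pattern. Of 10, none was called higher in muscle as fitted, beside 4.01% of all genes, 3 were called higher in bone (Tpm3, Tnni1 and Atp2a2), beside 52.2%, and none held on all 3 scales. Casq2, the calsequestrin of slow fibers and heart, was called higher in muscle after centering, beside 7.96% of all genes, and after subtraction, beside 17.3%. The median log2 difference was 0.02 as fitted and -1.66 after subtraction. The slow myosin Myh7 measured 7.19, 182, 229 and 28.7 CPM in muscle and 561, 59.5, 22.0 and 45.4 CPM in bone, and its log2 difference of 0.46 had a 95% interval from -1.65 to 2.56. The slow tropomyosin Tpm3, also expressed outside muscle, measured 11.7, 21.4, 37.1 and 17.9 CPM in muscle and 210.4, 82.4, 173 and 165 CPM in bone (log2 difference 2.82 ± 0.43 SE, adjusted p = 0.00028). The slow light chain Myl2 measured 1.66, 7.40, 13.3 and 2.18 CPM in muscle and 15.6, 1.21, 0 and 0.908 CPM in bone. In muscle, replicates 2 and 3 were the highest for Myh7 and Myl2 and replicate 1 the lowest. Summed over the list, slow-fiber genes came to 68.4, 303, 429 and 105 CPM in muscle, against 122610, 150900, 138700 and 144770 CPM for fast-fiber genes.

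**Figure D4:**
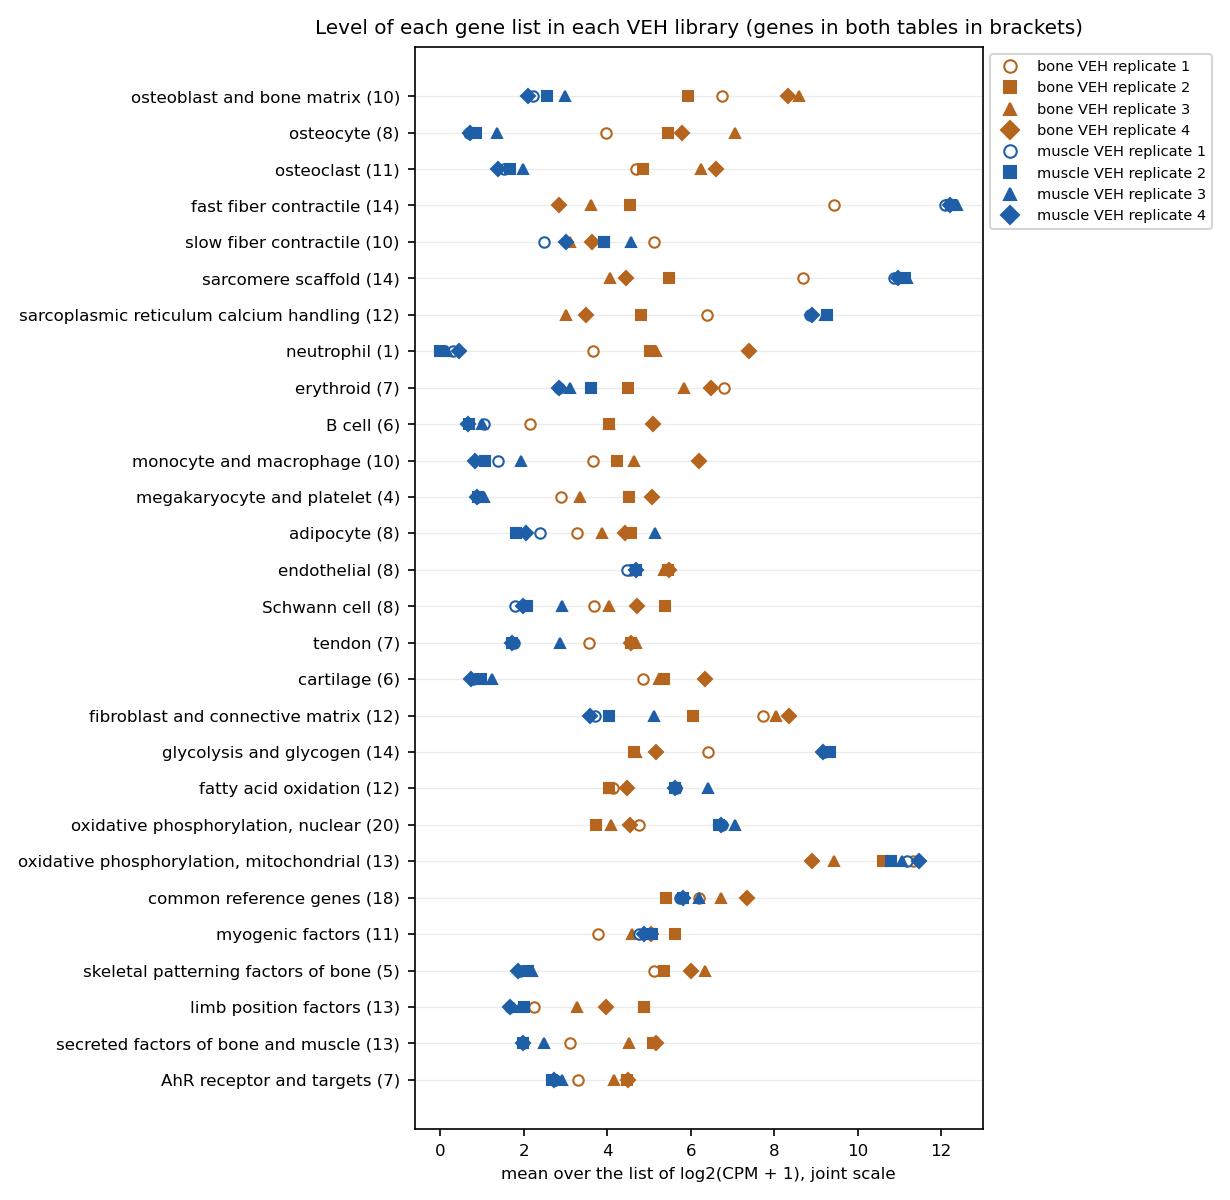
Mean log2(CPM + 1) of each of 28 gene lists (rows, number of genes in both tables in brackets) in each VEH library (symbols, brown for bone and blue for muscle). Bone replicate 1 (open brown circle) stands between the tissues for the fast-fiber list at 9.44, where the other bone libraries reach 4.54 at most and the muscle libraries lie between 12.1 and 12.4. The endothelial list lies between 4.48 and 5.48 in all 8 libraries.

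Energy metabolism genes were mostly higher in muscle. Glycolysis and glycogen genes were called for 14 of 14 (median log2 difference -3.38 as fitted and -5.73 after subtraction), and 12 held on all 3 scales, beside 4.01% of all genes as fitted and 3.5% on all 3 scales, with Pkm and Gpi1 missing the call after subtraction. Glycogen phosphorylase Pygm measured 3092, 3748, 3318 and 2996 CPM in muscle and 244, 24.2, 23.0 and 20.9 CPM in bone (log2 difference -6.27 ± 0.65 SE, adjusted p = 2.1e-05). Phosphofructokinase Pfkm measured 1429.8, 1607, 1177 and 1399 CPM in muscle and 167, 10.9, 18.9 and 13.6 CPM in bone. Nuclear oxidative phosphorylation genes were called for 18 of 20 (median log2 difference -2.31 as fitted and -4.29 after subtraction), and 15 held, beside 4.01% of all genes as fitted and 3.5% on all 3 scales. The muscle form of a cytochrome oxidase subunit, Cox6a2, measured 162, 163, 204 and 145 CPM in muscle and 14.3, 1.21, 1.02 and 0.908 CPM in bone. Fatty acid oxidation genes were called for 7 of 12 (median log2 difference -1.52 as fitted and -4.27 after subtraction), and all 7 held, beside 4.01% of all genes as fitted and 3.5% on all 3 scales. Among them Cpt1b, which imports fatty acids into muscle mitochondria, measured 102, 104.3, 126 and 96.5 CPM in muscle and 10.1, 6.06, 0.671 and 3.26 CPM in bone. Fabp3, a fatty acid carrier, measured 56.1, 42.3, 120.5 and 57.03 CPM in muscle and 9.25, 1.21, 6.64 and 1.06 CPM in bone.

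Of 13 genes encoded in the mitochondrion, 1 was called higher in muscle, the ATP synthase subunit mt-Atp8, beside 4.01% of all genes, and none held on all 3 scales (median log2 difference -1.12 as fitted and -1.12 after subtraction). Of the genes described here with an exon length, the oxidase subunit mt-Co1 was the highest per kb in bone and second highest in muscle. It measured 25962, 8236, 5844 and 3538 CPM in bone and 14075, 10813, 14880 and 16911 CPM in muscle. Bone replicate 1 exceeded every muscle library, and the other 3 bone libraries lay below them all. Its log2 difference of -0.78 had a 95% interval from -3.43 to 1.87. Mitochondrial ribosomal RNA took 36.7% of the deposited CPM of bone replicate 1 and between 6.66% and 16.1% of the other bone libraries.

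Many enzymes and structural proteins exist as a muscle form and a general form, and 14 such pairs were compared within each library as the share of the muscle form in the CPM per kb of the pair. In muscle, creatine kinase was Ckm for 99.8, 99.9, 99.8 and 99.8% of the pair Ckm and Ckb, and in bone for 73.9, 15.4, 1.34 and 1.15%. Enolase was Eno3 for 99.5, 99.3, 98.8 and 99.6% of Eno3 and Eno1 in muscle and 92.5, 14.3, 19.1 and 8.92% in bone. Actin was Acta1 for 97.9, 98.1, 98.2 and 98.1% of Acta1 and Actb in muscle and 57.7, 16.4, 0.446 and 0.056% in bone. The elongation factor was Eef1a2 for 84.9, 87.7, 81.5 and 86.5% of Eef1a2 and Eef1a1 in muscle and 7.05, 1.30, 0.072 and 0.025% in bone. For all 14 pairs the mean muscle share in muscle lay between 82.8% and 99.95%. Bone replicate 1 was the highest bone library for 13 of the 14 pairs, the exception being Cox8b and Cox8a, at 29.8, 42.8, 0 and 0% in bone replicates 1 to 4.

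Some general forms were higher in bone. Ckb, the brain-type creatine kinase, measured 46.3, 63.0, 147 and 179 CPM in bone and 2.83, 1.99, 3.66 and 2.55 CPM in muscle and held on all 3 scales (log2 difference 4.67 ± 0.51 SE, adjusted p = 2.6e-05). Pgam1, the general phosphoglycerate mutase, measured 15.8, 51.7, 26.4 and 58.1 CPM in bone and 3.88, 3.51, 10.5 and 3.04 CPM in muscle and held as well. Eno1 measured 25.8, 30.5, 54.4 and 97.3 CPM in bone and 17.0, 25.8, 38.8 and 15.9 CPM in muscle, was not called, and its sign turned after subtraction, at -1.18. Eef1a1 measured 540.2, 91.5, 942 and 1226 CPM in bone and 49.4, 46.4, 83.2 and 43.4 CPM in muscle, with the reservation that it has many near-identical copies among which the counting could split reads.

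**Figure D5:**
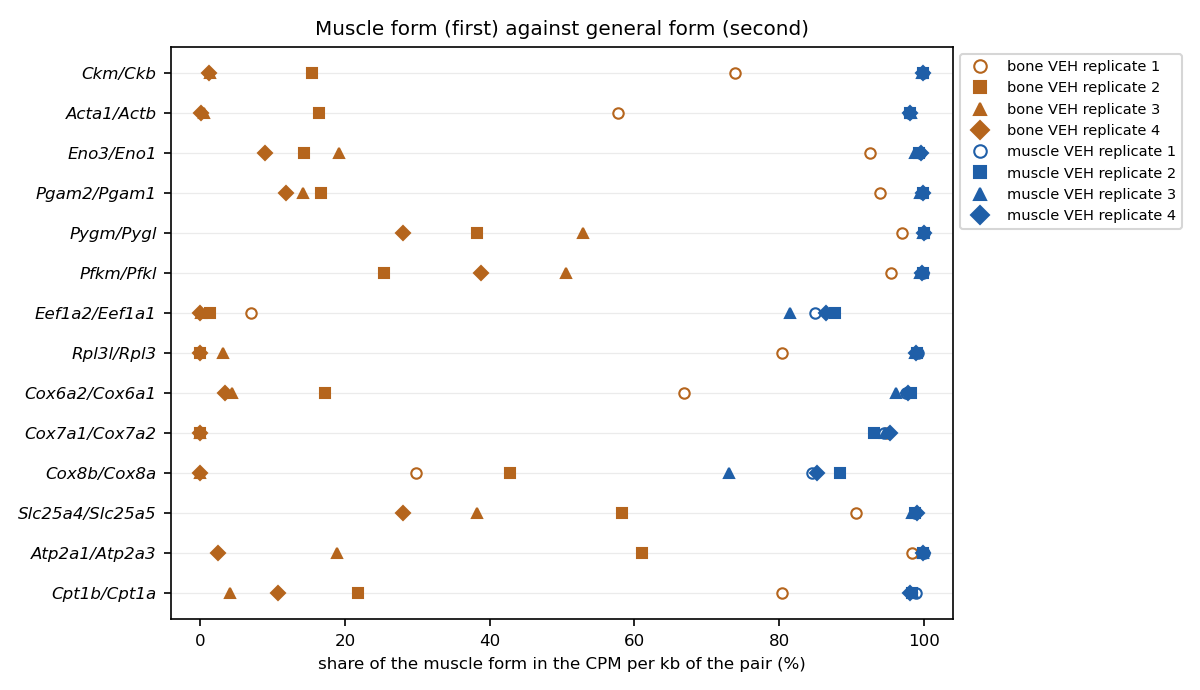
Share of the muscle form in the CPM per kb of exon of each of 14 pairs (rows, muscle form named first) in each VEH library. Muscle libraries lie at 73.1% or above for every pair, whereas bone libraries spread widely and bone replicate 1 (open brown circle) is the nearest to muscle in 13 pairs, hidden behind the muscle symbols for Cox7a1 and Cox7a2 at 94.9%.

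All 12 fibroblast and matrix genes were called higher in bone, beside 52.2% of all genes (median log2 difference 3.24 as fitted and 1.98 after subtraction), and Fn1 and Bgn held on all 3 scales, beside 4.1% of all genes. Fibronectin (Fn1) measured 2019, 304, 831 and 1404 CPM in bone and 24.6, 30.3, 92.2 and 20.1 CPM in muscle (log2 difference 4.70 ± 0.58 SE, adjusted p = 6.5e-05). The small proteoglycan Bgn measured 191, 141, 824 and 584 CPM in bone and 15.8, 17.4, 34.9 and 13.7 CPM in muscle. Cartilage genes were called higher in bone for 5 of 6, beside the same 52.2% (median log2 difference 4.27 as fitted and 2.96 after subtraction), of which Col2a1, Comp and Chad held. The gene not called, the collagen chain Col9a1, had a log2 difference of 1.46 and was called higher in muscle after subtraction, at -1.10. Type II collagen (Col2a1), the main collagen of cartilage, measured 173, 119, 902 and 707 CPM in bone and at most 0.285 CPM in muscle (log2 difference 8.21 ± 0.60 SE, adjusted p = 2.5e-06), and aggrecan (Acan), in the bone table only, measured 133, 89.7, 17.4 and 106 CPM, which was 89.2, 1.17, 1.11 and 1.91 times the olfactory receptor level per kb. Comp, a matrix protein of cartilage and tendon, measured 376, 31.5, 198 and 166 CPM in bone and 1.43, 0.711, 3.59 and 1.34 CPM in muscle. Of 7 tendon genes 6 were called higher in bone, beside 52.2% of all genes, and none after subtraction, with a median log2 difference of 2.43 as fitted and 0.18 after subtraction. The tenomodulin gene Tnmd, a defining marker, measured 5.05, 8.49, 8.17 and 2.72 CPM in bone and 0.356, 0, 1.96 and 0.485 CPM in muscle.

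Muscle replicate 3, whose column name carries the word replacement, had the highest mean level of the fibroblast, tendon and adipocyte lists among muscle libraries. Its Col1a1 level was the highest of the muscle libraries. Without it, 187 of the 187 bone-higher and 486 of the 601 muscle-higher genes were still called as fitted. Adipoq, which encodes the adipocyte hormone adiponectin, measured 1.07, 0, 16.5 and 0.607 CPM in muscle replicates 1 to 4. Adipsin (Cfd), a secreted protease of adipocytes, measured 4.75, 1.14, 114 and 1.70 CPM. The fatty acid desaturase gene Scd1, outside the list, measured 30.9, 21.9, 762 and 18.0 CPM. Among genes that passed 10 CPM in every library of both tissues, Scd1 had the largest spread between muscle libraries. Acaca, Cilp, Col1a1 and Myh2 followed, and all 5 genes were highest in replicate 3. Of 8 adipocyte genes, 2 were called higher in bone (Adipoq and Lep), beside 52.2% of all genes, and none held, with a median log2 difference of 0.99 as fitted and -0.74 after subtraction. The summed level of the 8 was 150.2, 116, 769 and 146 CPM in muscle and 211, 326, 184 and 337 CPM in bone, so muscle replicate 3 lay above every bone library and the other muscle libraries below them all.

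Of 8 endothelial genes, only the clotting factor carrier Vwf was called as fitted (higher in bone, beside 52.2% of all genes), and none held on all 3 scales. After subtraction Emcn and Egfl7 were called higher in muscle, beside 17.3% of all genes. Cdh5, the cadherin of endothelial junctions, measured 69.4, 63.0, 95.5 and 74.4 CPM in bone and 68.2, 67.4, 71.9 and 68.7 CPM in muscle, and its log2 difference of 0.11 had a 95% interval from -0.62 to 0.84, the narrowest of the genes at a like level. Pecam1 measured 39.7, 36.4, 70.0 and 72.6 CPM in bone and 33.3, 42.3, 38.7 and 43.7 CPM in muscle. With the olfactory receptor level subtracted the median log2 difference of the 8 genes was -2.09, against 0.47 as fitted. Schwann cell genes were called higher in bone for 6 of 8, beside 52.2% of all genes, with a median log2 difference of 2.38 as fitted and 0.08 after subtraction. Of these Egr2 held, which is also an early response gene. Egr2 measured 21.5, 63.0, 86.8 and 38.1 CPM in bone and 0.475, 0.569, 1.20 and 0.364 CPM in muscle.

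Of 11 myogenic factors 4 were called higher in muscle (Mef2c, Mef2d, Myf6 and Tbx15), beside 4.01% of all genes, and 1 higher in bone (Pax7), beside 52.2%. Tbx15 and Myf6 held with muscle higher, beside 3.5% of all genes (median log2 difference -0.0048 as fitted and -2.21 after subtraction). Pax7, the factor of satellite cells, had a log2 difference of 2.62 as fitted and -0.997 after subtraction, and without bone replicate 1 as well it was called higher in muscle, at -1.31. Myf6, the myogenic factor of mature fibers, measured 36.0, 39.8, 36.1 and 29.9 CPM in muscle and 6.52, 14.5, 4.09 and 6.35 CPM in bone (log2 difference -2.16 ± 0.47 SE, adjusted p = 0.0023). Tbx15, a factor of fast glycolytic fibers, measured 125, 167, 198 and 114 CPM in muscle and 34.7, 56.98, 22.5 and 42.7 CPM in bone. Myod1 measured 14.3, 17.9, 15.6 and 17.7 CPM in muscle and 7.57, 54.6, 8.68 and 18.2 CPM in bone, with a 95% interval of its log2 difference from -1.21 to 1.20. Of 13 limb position factors 8 were called higher in bone, beside 52.2% of all genes, and none of these held, with a median log2 difference of 1.98 as fitted and -0.12 after subtraction. Hoxc10 was called higher in muscle and held, at 40.9, 45.9, 44.7 and 44.8 CPM in muscle and 9.67, 26.7, 18.9 and 17.2 CPM in bone (log2 difference -1.32 ± 0.41 SE, adjusted p = 0.015).

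Secreted factors of bone and muscle were called higher in bone for 9 of 13 and higher in muscle for 1, beside 52.2% and 4.01% of all genes. After subtraction 1 was called higher in bone (Lcn2) and 3 higher in muscle (Mstn, Fndc5 and Il15, beside 17.3% of all genes), the median log2 difference was 1.07, against 3.07 as fitted, and Lcn2 and Mstn held on all 3 scales. Mstn, which encodes the growth inhibitor myostatin, measured 24.5, 25.9, 24.8 and 22.7 CPM in muscle and 1.47, 12.1, 6.13 and 6.35 CPM in bone (log2 difference -1.99 ± 0.55 SE, adjusted p = 0.0088). Tnfrsf11b, the osteoclast inhibitor osteoprotegerin, measured 21.7, 27.9, 107 and 36.3 CPM in bone and at most 0.238 CPM in muscle, and Tgfb1 measured 38.7, 50.9, 193 and 142 CPM in bone and 3.44, 3.84, 4.46 and 3.40 CPM in muscle. Both missed the call after subtraction. Of 7 genes of the AhR pathway, 3 were called higher in bone (Ahr, Cyp1b1 and Tiparp), beside 52.2% of all genes, and none held, 2 were called higher in muscle after subtraction (Cyp1a1 and Nqo1, beside 17.3% of all genes), and the median log2 difference of 1.36 turned to -1.35 after subtraction. The AhR target Cyp1b1 measured 20.4, 60.6, 54.7 and 77.2 CPM in bone and at most 0.979 CPM in muscle, and the receptor partner Arnt measured 21.7, 43.6, 55.2 and 66.3 CPM in bone and 34.0, 43.4, 41.5 and 33.1 CPM in muscle with overlap.

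Genes at a like level were sought as those whose 95% interval of the log2 difference lay within 1 of 0, among the 2720 that passed 10 CPM in all 8 libraries. As fitted 147 met this, after centering 717, and 4 met it on both scales (Arfgef2, Dlg1, Map3k7 and Trpc4ap), and with the olfactory receptor level subtracted 0 did. The number depended on which libraries were used: without any 1 muscle library between 3 and 15 met this, and without bone replicates 1, 2 and 3 in turn 321, 236 and 77. The highest of the 147 were Herc1, Hook3, Vps13d, Usp9x, Tnrc6b, Cavin1, Ash1l, Epb41, Mia3 and Trip12. Herc1, a very large ubiquitin ligase, measured 106, 204, 211 and 316 CPM in bone and 159, 214, 173 and 175 CPM in muscle. The caveola protein gene Cavin1 measured 261, 72.7, 215 and 102 CPM in bone and 121, 154, 161 and 153 CPM in muscle. Beside Cdh5, the narrowest intervals belonged to Cenpb, Aars, Uso1, Afdn, Metap2, Setd3, Slain2, Epb41 and Mia3, and the peptidase gene Metap2 measured 88.3, 66.7, 97.0 and 114 CPM in bone and 80.0, 96.6, 100.3 and 82.2 CPM in muscle.

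Of 18 genes often taken as a constant reference, 8 were called higher in bone and 3 higher in muscle, beside 52.2% and 4.01% of all genes, and the 3, Gapdh, Sdha and Pgk1, held on all 3 scales. The median log2 difference of the 18 was 1.04 as fitted and -0.93 after subtraction. Gapdh, an enzyme of glycolysis, measured 551, 566, 588 and 705 CPM in muscle and 54.2, 80.3, 39.1 and 64.3 CPM in bone (log2 difference -3.36 ± 0.37 SE, adjusted p = 3e-05). Beta-actin (Actb) measured 594, 155, 1435 and 2545 CPM in bone and 158, 171, 186 and 151 CPM in muscle (log2 difference 2.19 ± 0.66 SE, adjusted p = 0.013), with bone replicate 2 inside the range of muscle, and missed the call after centering. Elongation factor Eef2 overlapped between the tissues, at 454, 178, 782 and 664 CPM in bone and 505, 574, 712 and 448 CPM in muscle, and its log2 difference of -0.28 had a 95% interval from -1.35 to 0.79. Rplp0 overlapped too, at 229, 31.0, 269.6 and 247 CPM in bone and 157, 159, 187 and 137 CPM in muscle.

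The 8 BAY libraries share no library with the VEH comparison and gave the same measure in treated mice. Fitted in the same way they gave 13831 bone-higher and 713 muscle-higher calls, and all 187 bone-higher genes and 443 of the 601 muscle-higher genes that held in VEH were called in the same direction, beside 67.4% and 3.47% of all genes. With the olfactory receptor level subtracted, 102 of the 187 and 369 of the 601 were called, beside 7.59% and 29.1% of all genes. Col1a1 measured 1426, 1195, 17266 and 1544 CPM in bone of BAY replicates 1 to 4 and 17.1, 16.1, 23.6 and 19.5 CPM in muscle. Dmp1 measured 55.1, 43.0, 1091 and 116 CPM in bone and at most 0.280 CPM in muscle. Myh4 measured 16077, 18346, 671 and 22.1 CPM in bone and 82076, 77142, 66913 and 120500 CPM in muscle, so BAY bone replicates 1 and 2 held more of it than any VEH bone library. No fast-fiber gene was called in the BAY libraries after subtraction. Of genes that held with muscle higher in VEH, 1 of 13 scaffold, 4 of 11 calcium handling and 2 of 12 glycolysis genes were called there. The counts were 7 of 15 for nuclear oxidative phosphorylation and 4 of 7 for fatty acid oxidation.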

How the data were processed

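RNA-seq of cortical bone and TA from VEH and BAY mice was compared between tissues, mainly in the 4 VEH libraries of each. Reads had been aligned with STAR 2.7.8a to mm39 and quantified against the Ensembl annotation in Partek by an expectation-maximization method. The authors deposited 1 table per tissue of log2 values, made from CPM after an offset of 0.0001 (bone) or 0.0004 (muscle). Log2 and offset were undone, tables were joined on gene identifier, and each library was rescaled to 1000000. No read counts were used: between 81.1% and 88.3% of low values were whole multiples of 1 read (tolerance 0.02, up to 50 reads), so the depths given are estimates, and 3 reads corresponded to between 0.324 and 2.76 deposited CPM in VEH libraries.

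Differences of log2(CPM + 1) were tested with limma 3.58.1 (R 4.3.3, empirical Bayes with trend, Benjamini-Hochberg over 20526 genes), which understates changes of low genes. A call needed an adjusted p below 0.05 and a log2 difference of at least 1. A p-value measures only the spread between these samples. In simulated data with 200 changed genes, 50% of those changed by 2 and 79% of those changed by 3 (log2) were called, with 22 false calls among 20526 genes. The simulated noise was independent for each gene. It held no level shared by the genes of a library, unlike the bone libraries, so the 22 do not describe false calls in these data. Python 3.11.15 was used for the rest. The members and gene lists were chosen with earlier results of these data known, and the subtraction of the olfactory receptor level was chosen after seeing the data. Genes were named as the 10 largest called differences in each direction (all genes, and for bone those called on all 3 scales), the highest per kb, the highest and narrowest like-level genes, those with the largest SD, and members of the lists, and some genes under this rule are not reported here. Alternatives covered scaling, pseudocount, filter, model, left-out libraries and the BAY libraries.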

Additional observations from a re-analysis of the deposited data

Results flagged for a closer look

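Single libraries stood apart from the other 3 of their group by Dixon's ratio, a test that flags about 1 in 20 groups of 4 by chance. Among the values in the text this happened in 2 of 28 gene lists, 4 of 14 pairs and 9 of 132 genes in bone, and in 4 of 28 lists, 2 of 14 pairs and 6 of 132 genes in muscle.

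Bone replicate 1 was the library concerned in most cases of bone. Its mean log2 level was 4.54 for the endothelial list, where the others lay between 5.37 and 5.48, and 3.55 for the tendon list, where the others lay between 4.57 and 4.68. Its share of the muscle form was 92.5% for Eno3 and Eno1, 93.9% for Pgam2 and Pgam1, 80.4% for Rpl3l and Rpl3 and 94.9% for Cox7a1 and Cox7a2, against at most 19.2% in the other bone libraries. Its levels of Cox6a2 (14.3 CPM), Cox7a1 (4.42 CPM), Myh2 (2577 CPM), Pygm (244 CPM) and the cartilage matrix gene Cilp (439.6 CPM) were the highest of the bone libraries, and that of the osteocyte gene Ptprz1 (30.1 CPM) the lowest. Bone replicate 2 stood apart with low Rplp0 (31.0 CPM) and Sdha (10.9 CPM), and bone replicate 4 with high Mki67 (624 CPM).

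In muscle, replicate 3 stood apart with a mean log2 level of 2.87 for the tendon list, 6.41 for fatty acid oxidation and 2.49 for secreted factors. It was also the highest for Acaca (116 CPM), Acp5 (5.22 CPM), Scd1 (762.0 CPM), Sdha (436 CPM) and Tnc (8.38 CPM), and the lowest in the muscle share of Pgam2 and Pgam1 (99.5%) and of Pygm and Pygl (99.8%). Muscle replicate 1 was the lowest for the endothelial list, at 4.48, and muscle replicate 4 the highest for Gm10800, at 7.40 CPM. What sets these libraries apart was not tested.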

How the results depend on the processing

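Beside 10708 bone-higher, 824 muscle-higher and 147 like-level genes, quantile normalization gave 3452, 3681 and 365, median centering 1633 muscle-higher and 717 like-level genes, and totals without mitochondrial, hemoglobin and fiber genes 1692 and 652. A pseudocount of 10 gave 6559 bone-higher and 434 like-level genes, and a fit on the 5458 genes alone 1871 bone-higher genes, since fewer genes were tested. Like-level genes numbered 12 without a trend, 3 with array weights and 584 in BAY libraries. Leaving out 1 library gave between 6944 and 14913 bone-higher, 603 and 892 muscle-higher and 3 and 321 like-level genes. Bone replicate 4 moved the bone-higher count by over 1.5 times (to 6944), and every library except bone replicate 4 moved the like-level count so (without bone replicates 1 to 3 to 321, 236 and 77, without muscle replicates 1 to 4 to 6, 4, 15 and 3). At 5 and 20 CPM, 8298 and 3099 genes met the level. 

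Alternatives chosen after seeing the data gave 345 like-level genes with totals over nuclear protein-coding genes, 6166 bone-higher and 295 like-level genes without bone replicates 2 and 4, and with the olfactory receptor level subtracted 836, 3534 and 0, or 1463, 5152 and 0 without bone replicate 1, or 1550, 5942 and 2 in BAY libraries.

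Replicate numbers were not used to pair the samples. Deviations of same-numbered libraries correlated at 0.0527, 0.139, 0.00239 and -0.0595, and bone and muscle libraries did not each correlate best with their own number. These values do not settle whether same-numbered samples came from the same mice. A replicate block gave 11058 bone-higher, 820 muscle-higher and 103 like-level genes.

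Of 2279 comparisons of a called gene named here with an alternative, 2062 kept direction and call, 195 kept direction alone and 22 changed sign. With subtraction, with subtraction without bone replicate 1 and with subtraction in BAY libraries, in that order, log2 differences were -0.0052, -0.52 and -0.30 for Adipoq, -0.83, -1.29 and -1.89 for Ahr, -0.24, -1.11 and -3.08 for Atp2a2, -1.35, -2.01 and -2.14 for Tiparp, -0.43, -1.21 and -0.70 for Tnni1, and -2.43, -3.18 and -1.64 for Vwf. Pax7 gave -0.997 and -1.31 in the first pair of fits, and both Pax7 at -1.31 and Ahr at -1.89 were muscle-higher calls. The other sign changes of genes called as fitted were not calls. Gp1bb gave -0.14 in the last and Tnni1 -0.0026 after quantile normalization. Genes not called turned to a muscle-higher call for Acaca (-3.76, -4.72 and -4.44 in the same order), Col9a1 (-1.10, -1.10 and -1.64), Emcn (-1.95, -2.44 and -2.48), Il15 (-1.86, -1.86 and -1.85), Cyp1a1 (-1.06 and -1.16 in the first pair), Myh7 (-5.33 without bone replicate 1, -3.58 in BAY), Arnt (-3.88 in BAY) and Eno1 (-3.55 in BAY). Without division by exon length, 11 of 28 isoform shares moved by more than their SD. The cause of these changes was not tested. Depth limits bone most, where 3 reads in replicate 2 equal 2.76 deposited CPM.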
